A study of Mus musculus with 10 samples.

Results

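The genes of the cytosolic ribosomal proteins were followed in aorta RNA from mice. The members were chosen with earlier results of these data known. Rows were taken by name, as those called Rpl or Rps with a number, plus Rplp0, Rplp1, Rplp2 and Rpsa. The S6 kinases (Rps6k) and rows with -ps in their name were left out. This gave 88 of 35667 genes, 53 of the large (60S) and 35 of the small (40S) subunit, and the Rplp0 pseudogene Gm8730 was added for comparison. By the annotation, 84 of the 88 are protein-coding and 4 (Rpl6l, Rps3a2, Rps3a3 and Rps4l) are processed pseudogenes that carry such a name. A test was possible for 85 members. The others (Rpl10l, Rpl39l and Rpl3l) had between 0 and 6 reads in a library and were not tested.

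The 10 libraries were made from aorta of C57BL/6 mice aged 12 weeks, and 5 were labelled as knockout (KO) of Ovgp1, which encodes an oviduct glycoprotein, and 5 as wild type (WT). The labels describe no promoter, Cre driver or targeted exon, and do not say whether a library is a single animal. The genotype field of 4 of the KO libraries names Ovgp2 to Ovgp5, while every title names Ovgp1, so the groups follow the titles.

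Totals ran from 21242030 to 26694590 reads counted per library. Ovgp1 itself went against its label, at a level of 17.8 to 21.9 CPM in KO and 1.98 to 4.69 CPM in WT (CPM, the count relative to the library total, with libraries scaled by TMM, the trimmed mean of log ratios). The groups are therefore called by their labels, which the target gene does not bear out. The libraries labelled KO also differed little from each other. Over the 12509 genes that average 50 counts or more, pairs of them had a chi-square per degree of freedom of 1.77 to 3.25, against 11.0 to 154 for pairs of WT libraries, where 1 is pure sampling. Over the ribosomal protein genes alone the ranges were 2.14 to 6.28 and 5.80 to 41.4. The p-values of 5 against 5 libraries therefore measure mainly the spread of WT, and each main count is also given with the KO libraries summed into 1 sample. Markers of other cells moved with the label. The 5 lymphocyte markers summed to 274 to 279 CPM in KO and 8.11 to 25.4 in WT, led by the antibody genes Ighm, Igkc and Jchain, while Cd79a and Cd3e were under 1 CPM in all libraries. The 5 haemoglobin and red cell markers summed to 19.2 to 21.3 CPM in KO and 65.7 to 327 in WT, and the 5 nerve markers to 38.7 to 42.4 in KO and 14.5 to 21.9 in WT. The 5 fibroblast markers summed to 2261 to 2311 CPM in KO and 1720 to 2001 in WT, with 3 of 5 (Dcn, Lum and Scara5) called higher. Of the 5 macrophage markers 2 (Adgre1 and Csf1r) were called higher, and the sums overlapped (194 to 205 and 133 to 211 CPM). The sums of the endothelial (253 to 262 and 141 to 592), brown adipocyte (160 to 175 and 33.6 to 670), adipocyte (682 to 710 and 459 to 1707) and striated muscle markers (27.0 to 30.2 and 7.90 to 80.7) overlapped, with 0 of 20 genes called. The 5 smooth muscle markers, which define the tissue, were abundant in both groups (35459 to 36073 and 25409 to 38884 CPM). Their sums overlapped, and 1 of the 5 was called higher and 1 lower. The part of these cells in the ribosomal protein values was not tested, and in whole tissue fewer cells of a type and less RNA per cell cannot be told apart.

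The ribosome joins amino acids into protein. Its small subunit decodes the messenger RNA, its large subunit forms the peptide bond, and the P stalk, built of Rplp0 with Rplp1 and Rplp2, recruits the translation factors. Each ribosome holds the proteins in fixed proportion, and their messenger RNAs belong to the class with a 5′ terminal oligopyrimidine (TOP) tract, a run of C and T bases at the start that ties their translation to the kinase mTOR. Ribosomal protein genes have also given rise to many processed pseudogenes, copies of the spliced messenger RNA inserted elsewhere in the genome, whose reads are hard to tell from those of the parent gene.

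The TOP tract is shown first because it defines the class of messenger RNAs named above. Of the 88 members, 64 had a start region in the RefSeq table (GRCm38.p6). A C at the annotated first base followed by 4 bases that are each C or T, on the transcribed strand, stood in 13 of these 64 (20.3%), and in 3.01% of all 27025 genes of the table, where only this exact position was read. The lines give the 15 bases before and the 15 bases from the start for 6 of the 13 members with the tract. These 6 were selected among those of small p in the comparison, and a member of smaller p may be missing. Rack1, a ribosome-bound protein outside the name rule, is given as well. Capitals mark the run of C and T from the first transcribed base.
Rps15a (chr7:118116133-118116162, minus strand): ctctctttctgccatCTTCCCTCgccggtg
Rplp2 (chr7:141447636-141447665, plus strand): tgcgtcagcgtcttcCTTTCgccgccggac
Rpl28 (chr7:4792950-4792979, plus strand): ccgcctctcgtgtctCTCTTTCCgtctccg
Rpl38 (chr11:114668565-114668594, plus strand): agcggaagcctcgttCTTTCCCCgttctct
Rpl14 (chr9:120571502-120571531, plus strand): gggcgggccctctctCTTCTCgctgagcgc
Rps18 (chr17:33955651-33955680, minus strand): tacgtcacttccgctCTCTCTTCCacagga
Rack1 (chr11:48800345-48800374, plus strand): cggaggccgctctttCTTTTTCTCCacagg
The run was 5 bases long in Rplp2, 6 in Rpl14, 8 in Rps15a, Rpl28 and Rpl38, 9 in Rps18 and 10 in Rack1. The median log2 difference between KO and WT was -0.27 over the 13 members with the tract at this position and -0.28 over the 48 tested members of the table without it, 2 values that lie close together.

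Ribosomal protein transcripts made up a smaller share of the reads in the libraries labelled KO. Their share was 2.85%, 2.85%, 2.84%, 2.89% and 2.85% in KO 1 to 5 and 3.21%, 3.90%, 3.44%, 3.03% and 3.12% in WT 1 to 5, a mean of 2.85% ± 0.0212 (SD, n = 5) against 3.34% ± 0.349 (n = 5). Every KO library lay below every WT library, but the gap to WT 4 was small beside the range within WT. Transcripts of the mitochondrial genome took 7.61% to 7.88% of the reads in KO, and 16.2%, 6.75%, 13.2%, 8.92% and 9.59% in WT 1 to 5. With those rows left out of the total, the ribosomal protein share was 3.09% ± 0.0205 in KO and 3.75% ± 0.357 in WT, and the groups still did not overlap.

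**Figure D1:**
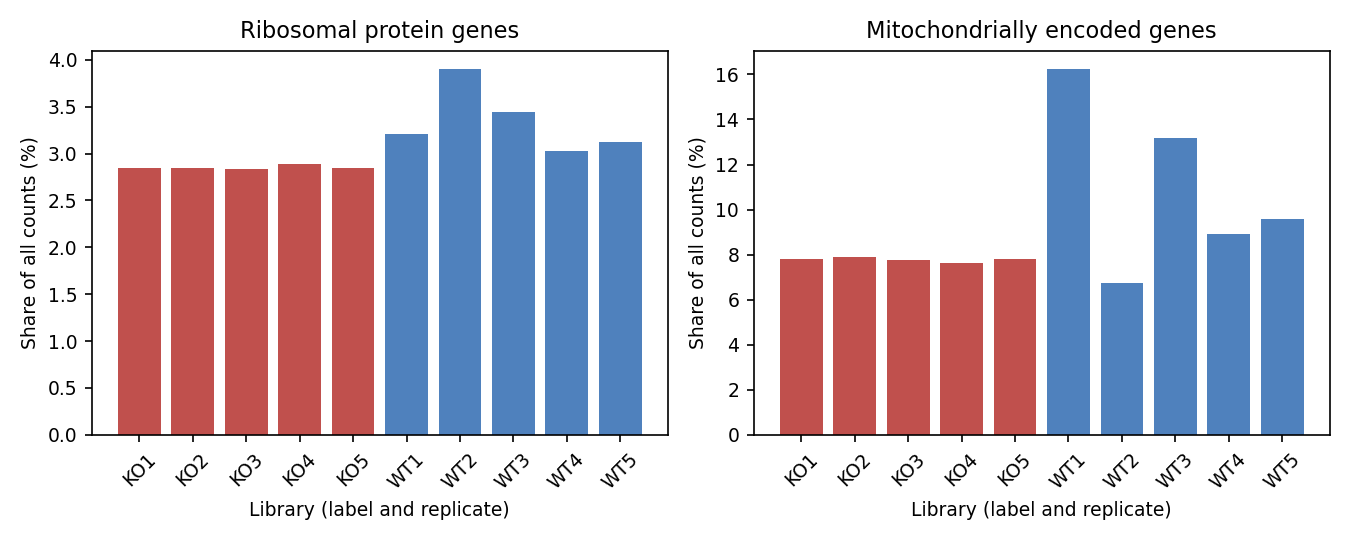
Share of all counts, in percent, that fell in ribosomal protein genes (left) and in genes of the mitochondrial genome (right), with a bar for each of the 10 libraries, red for KO and blue for WT. The KO bars stand at 2.84% to 2.89% on the left and the WT bars at 3.03% to 3.90%, with WT 2 highest on the left and lowest on the right.

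Of the 85 tested members, 62 were lower in KO at an adjusted p under 0.05 (edgeR quasi-likelihood test, Benjamini-Hochberg adjustment over all 15710 tested genes), 0 were higher and 23 did not pass. Of all tested genes, 7.43% were lower and 6.84% higher (14.3% either way). At an unadjusted p under 0.05 there were 76 members, all of them lower, beside 29.5% of all tested genes. Counted by size alone, 84 members had a negative and 1 (Rpl7l1) a positive log2 difference (with library totals, Rps27l, Rpl36al and Rpl24 were positive too), with a median of -0.28, a fold of 0.821, beside -0.02 over all tested genes. The called members ran from -0.58 (Rplp0) to -0.20 (Rpl7). All 5 KO libraries lay below all 5 WT libraries for 63 members (74.1%), beside 7.22% of all tested genes, and for 0 members above (7.38%). DESeq2 called 65 members lower and limma-voom 58, and neither called any higher. Among other genes at a mean of at least 100 CPM, the level that 72 members reach, 183 of 1719 (10.6%) were lower and their median was -0.02.

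The call rests on counting the 5 KO libraries as 5 samples. With them summed into 1, the median stayed at -0.28, but 0 members passed and the smallest adjusted p was 0.999. At that setting 3 members had an unadjusted p under 0.05, the lowest 0.00905 for Rplp0, while 3.72% of all tested genes did so and 7 genes in all (0.0446%) passed adjustment. The count of 62 also fell to between 30 and 36 when any of the 5 KO libraries was left out, to 38 without WT 1, and to 30 with library totals in place of TMM factors. None of these settings gave a member that was higher.

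**Figure D2:**
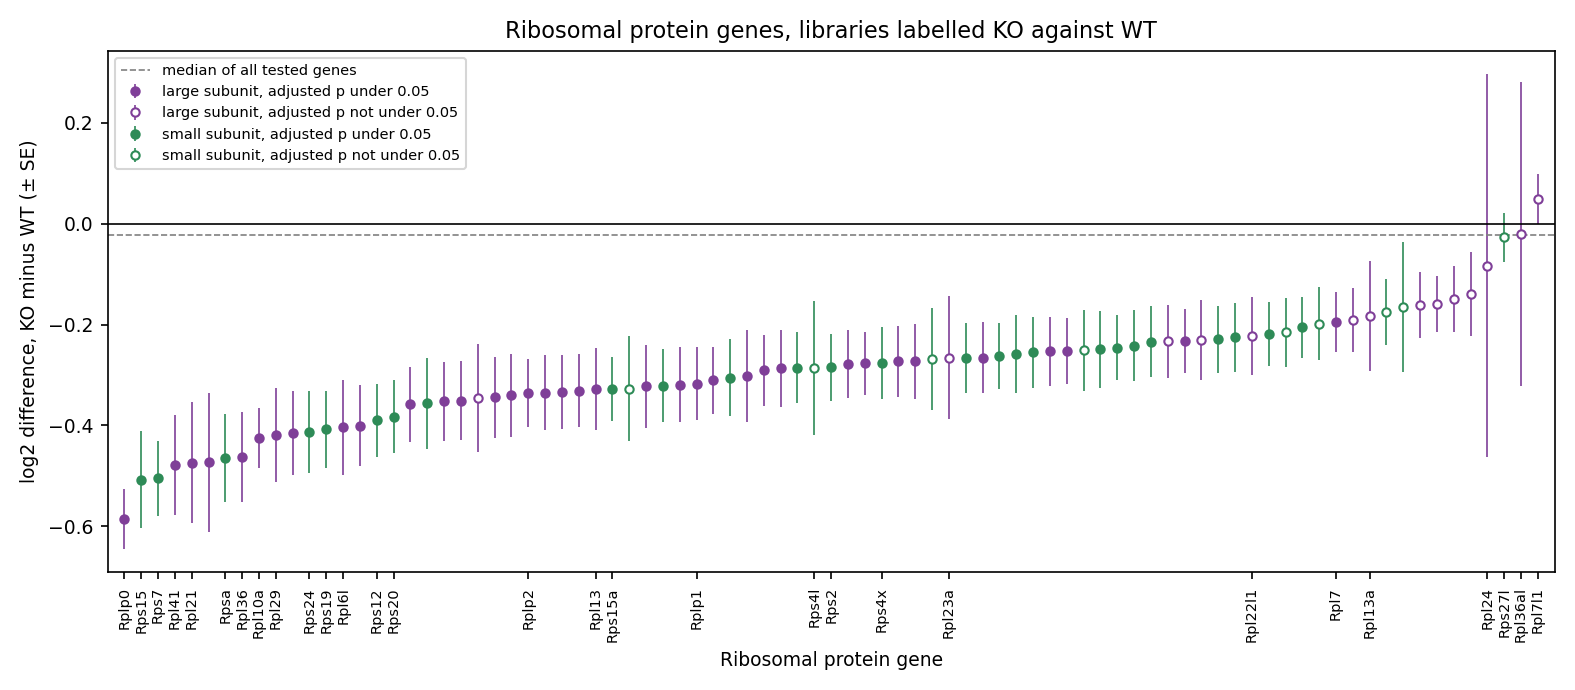
The log2 difference (KO minus WT) of the 85 tested ribosomal protein genes in order of size, with bars of 1 standard error, purple for the large and green for the small subunit, filled where the adjusted p was under 0.05, with names under some of the points that the text describes. The points lie below 0 except for Rpl7l1 (with library totals in place of TMM, Rps27l, Rpl36al and Rpl24 also pass 0), and the dashed line marks the median of all tested genes at -0.02.

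Both subunits took part. In the large subunit 36 of 50 tested members were lower, with a median of -0.31, and 37 had no overlap between groups. In the small subunit 26 of 35 were lower, with a median of -0.27, and 26 had no overlap. A test of the difference between the subunits was not made.

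The stalk proteins were all among the called members. Rplp0, the stalk base, had 694, 688, 694, 703 and 693 CPM in KO 1 to 5 and 1033, 1167, 1074, 955 and 979 in WT 1 to 5. The groups were far apart, and the log2 difference was -0.58 (SE 0.06, adjusted p 0.000175), the lowest of all tested members. An exact two-sided permutation test of Rplp0 gave p = 0.00794, the smallest value that 252 splits of 5 against 5 allow. Every gene without overlap between the groups gets this p, and the test counts the KO libraries as 5 samples. Rplp1 had 619, 630, 647, 632 and 619 CPM in KO and 808, 877, 843, 677 and 715 in WT, a difference of -0.32 (SE 0.07, adjusted p 0.0141). Rplp2 had 173, 173, 174, 176 and 173 CPM in KO and 229, 238, 241, 195 and 195 in WT, a difference of -0.34 (SE 0.07, adjusted p 0.00782). For both partners the KO values lay below WT 4 and WT 5 by less than the range of WT.

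In the small subunit, Rps15, a protein of the head near the decoding site, stood lowest. Its level was 572, 557, 580, 566 and 556 CPM in KO and 902, 831, 947, 648 and 696 in WT, and the log2 difference was -0.51 (SE 0.10, adjusted p 0.00628). Rpsa, also known as the laminin receptor, had 731, 717, 736, 749 and 724 CPM in KO and 1109, 1068, 1155, 837 and 877 in WT, a difference of -0.46 (SE 0.09, adjusted p 0.00604). In both genes WT 3 was highest and WT 4 lowest. Rps19, whose mutation causes Diamond-Blackfan anaemia in people, had 178, 183, 176, 188 and 184 CPM in KO and 246, 268, 271, 210 and 212 in WT, a difference of -0.41 (SE 0.08, adjusted p 0.00583). Rps24, another gene of that disease, gave 540 ± 13.2 CPM in KO and 720 ± 91.9 in WT (SD, n = 5 each) and differed by -0.41. Rps12 gave 198 ± 5.46 and 260 ± 29.2 CPM and differed by -0.39, Rps20 gave 344 ± 7.11 and 448 ± 49.8 and differed by -0.38, and Rps15a gave 195 ± 2.08 and 245 ± 23.4 and differed by -0.33. Their groups did not overlap, and their adjusted p-values lay between 0.0057 (Rps12) and 0.00747 (Rps24).

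In the large subunit outside the stalk, Rpl41, the smallest ribosomal protein, had 623, 612, 611, 613 and 607 CPM in KO and 949, 894, 1015, 680 and 737 in WT, a log2 difference of -0.48 (SE 0.10, adjusted p 0.0094). Rpl10a, a protein of the L1 stalk near the exit site of transfer RNA, had 480, 485, 498, 488 and 490 CPM in KO and 663, 722, 690, 600 and 602 in WT. Its difference of -0.43 (SE 0.06, adjusted p 0.00117) was the member's next smallest p after Rplp0. Rpl36 (207 ± 2.45 against 286 ± 43.4 CPM) and Rpl29 (202 ± 7.62 against 271 ± 40.8) differed by -0.46 and -0.42, with no overlap between groups.

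Per kilobase of the annotated transcript, the most abundant members in WT were Rpl41 (1679 CPM per kb), Rps15 (1609), Rplp1 (1572), Rpl13 (1144), Rpl7 (985) and Rps2 (979). In KO the same scale gave 1205, 1132, 1261, 912, 860 and 804. The order of the first 3 changed, and Rpl7 and Rps2 lay close together in both groups. Among them Rpl7 had the smallest difference, -0.20 (SE 0.06, adjusted p 0.0492), with 738, 727, 700, 728 and 711 CPM in KO and 808, 937, 827, 763 and 790 in WT. Rpl13 differed by -0.33 (adjusted p 0.02) and Rps2 by -0.28 (adjusted p 0.0164).

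The members moved together within WT. WT 2 was the highest WT library for 58 members and WT 3 for 16, while WT 4 was the lowest for 63 and WT 5 for 15. Against the mean of WT, the median member stood at 0.16 in WT 2, 0.09 in WT 3, 0.05 in WT 1, -0.14 in WT 5 and -0.18 in WT 4 on the log2 scale, and at -0.25 to -0.29 in the KO libraries. The WT libraries therefore spanned 0.16 to -0.18, a range wider than the step from WT 4 to KO. Fat markers stood apart in the same libraries. The brown adipocyte sum was 670 CPM in WT 4 and 478 in WT 5, against 33.6 to 130 in WT 1 to 3, and the adipocyte sum 1707 and 1303 against 459 to 684. The smooth muscle sum was lowest there (25409 and 28222 CPM, against 31128 to 38884). In KO, where the members were lower still, the adipocyte sums lay at 682 to 710 CPM. The brown adipocyte sums there were 160 to 175 CPM, above WT 1 to 3 and below WT 4 and WT 5. The smooth muscle sums there were 35459 to 36073 CPM. The part of fat tissue in the member levels was not tested. The median coefficient of variation of a tested member was 2.22% over the KO libraries and 11.2% over WT, where genes at a mean of at least 100 CPM had 1.86% and 10.4%. The base composition of the transcript went with the size of the difference. Across the 81 tested members with a coding transcript, Spearman's rho between log2 difference and GC content was -0.43, beside -0.09 across 13577 tested genes, both given as descriptions over genes that share libraries. The median was -0.25 in the 41 members at or under the median GC content of 51.8% and -0.33 in the 40 above it. Libraries differed in this respect too. For each library, rho was taken between GC and a gene's log2 level relative to its mean over WT. It ran from -0.40 in WT 2 to 0.33 in WT 3, and from -0.12 to -0.03 in KO. The part of GC content in the differences was not tested.

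Not all members followed. Rps27l, a paralogue of Rps27 that responds to p53, had 62.0, 62.4, 61.4, 61.2 and 61.8 CPM in KO and 63.1, 69.5, 62.9, 59.4 and 59.8 in WT, a log2 difference of -0.03 (SE 0.05, adjusted p 0.76) with overlapping groups. Rpl7l1, a paralogue of Rpl7, had 80.9, 82.1, 76.3, 82.8 and 80.7 CPM in KO and 70.9, 83.9, 78.9, 78.1 and 77.5 in WT, a difference of 0.05 (SE 0.05, adjusted p 0.559). The 95% intervals of the fold were 0.912 to 1.06 for Rps27l and 0.959 to 1.11 for Rpl7l1, which leave out the median fold of the members (0.821). With the KO libraries as 1 sample the intervals were 0.805 to 1.2 and 0.851 to 1.25, and that of Rps27l then held 0.821. Rpl22l1, the paralogue of Rpl22, had 11.1 ± 0.722 CPM in KO and 12.9 ± 0.947 in WT and differed by -0.22 (adjusted p 0.0766). Rps4x, the X-linked form of the S4 protein, was lower (-0.28, adjusted p 0.0255), and the pseudogene row Rps4l differed by -0.29 with overlapping groups (adjusted p 0.175). The pseudogene row Rpl6l was lower at 32 ± 2.15 against 42.4 ± 6.31 CPM (-0.40, adjusted p 0.0161). Whether these paralogues differ from the rest of the members was not tested.

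A few members were nearly empty. Rpl24 had 0.526 ± 0.0947 CPM in KO and 0.56 ± 0.38 in WT, Rpl36al 0.519 ± 0.0491 and 0.534 ± 0.249, and Rpl13a 7.26 ± 0.948 and 8.25 ± 0.757, where the median member in WT had about 349 CPM. Rpl24 and Rpl13a encode core proteins of the large subunit, and Rpl36al is the paralogue of Rpl36a. Processed copies held 95.9% of the reads of the Rpl24 family, 76.4% of those of Rpl36al, 86.0% of those of Rpl23a and 35.0% of those of Rpl13a. None of these 4 members passed the test alone. How reads were shared between a gene and its copies is not stated, so a level from such a row is uncertain. The cause of the low levels was not tested.

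Copies also bore on the lowest member. Gm8730 is a processed pseudogene of Rplp0 on chromosome 8 (GRCm38 annotation, 102864845 to 102865798, minus strand), and Rplp0 lies on chromosome 5 (115559467 to 115563727, plus strand). Over the 951 coding bases of Rplp0 the copy differs at 12 positions (98.7% identity), 10 of them at the third position of a codon, with 0 in-frame stop codons. The stretch from coding base 373 to 462 shows how alike they are, with 3 differing bases in capitals. These are A390G, A393G and A447T, written with the base of Rplp0 first, the position counted from 1 at the A of the start codon, and then the base of Gm8730.
Rplp0: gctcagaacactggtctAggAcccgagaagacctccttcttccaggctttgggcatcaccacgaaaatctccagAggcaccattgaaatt
Gm8730: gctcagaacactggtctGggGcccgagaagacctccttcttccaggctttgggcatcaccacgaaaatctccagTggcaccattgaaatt

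Gm8730 went the opposite way to its parent. It had 155, 153, 151, 154 and 156 CPM in KO 1 to 5 and 22.4, 22, 26.5, 22.1 and 26.8 in WT 1 to 5. The groups were far apart, the log2 difference was 2.68 (SE 0.07, adjusted p 1.03e-09), the smallest p of all tested genes, and it passed with the KO libraries as 1 sample too (adjusted p 0.00145). The exact two-sided permutation p was 0.00794, again the smallest possible and the value of any gene without overlap between the groups. Gm9625, another processed pseudogene of Rplp0 with 97.4% identity and 24 mismatches, on chromosome 13, had 21.2, 24.2, 23.1, 23.8 and 23.8 CPM in KO and 4.48, 4.19, 4.84, 3.25 and 4.55 in WT. Its difference of 2.45 (SE 0.10, adjusted p 1.58e-07) was the second smallest p of all tested genes and also passed with KO as 1 sample (adjusted p 0.0228).

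Together, Rplp0 and Gm8730 changed less than Rplp0 alone. Their sum was 849, 840, 845, 857 and 849 CPM in KO and 1055, 1189, 1100.0, 977 and 1006 in WT, or 848 ± 6.09 against 1065 ± 83.7 (SD, n = 5 each). Gm8730 held 17.9% to 18.3% of that sum in KO and 1.85% to 2.67% in WT. With the reads of all 10 copies added to Rplp0, the log2 difference was -0.30 (SE 0.06, adjusted p 0.00745), and Rplp0 moved from the lowest to place 38 of the 85 members.

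**Figure D3:**
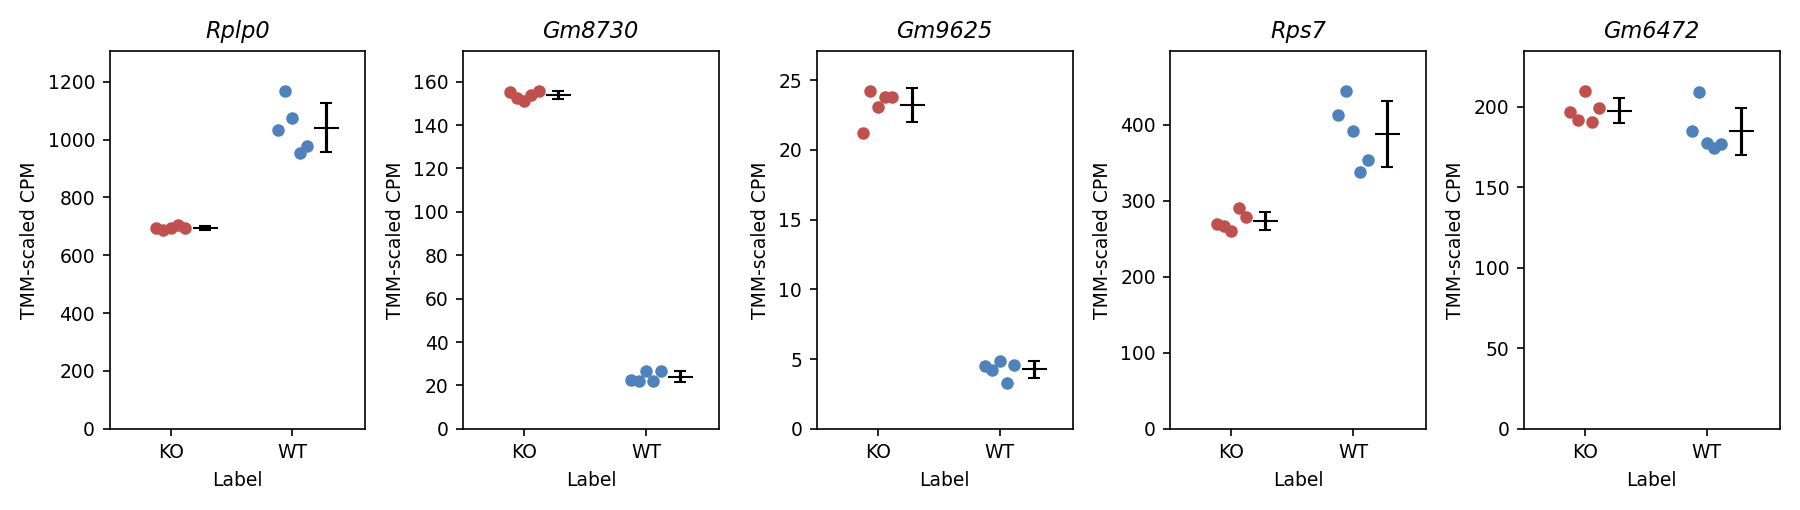
TMM-scaled CPM of Rplp0 and its copies Gm8730 and Gm9625, and of Rps7 and its copy Gm6472, with a point for each library, a dash for the mean and a bar for the SD of 5 libraries. Rplp0 is at 688 to 703 CPM in KO and 955 to 1167 in WT, and Gm8730 at 151 to 156 in KO and 22.0 to 26.8 in WT.

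Rps7, another protein of the small subunit, has an abundant copy that did not pass the test. Gm6472, a transcribed processed pseudogene on chromosome X (152909505 to 152910155, minus strand), differs from the 582 coding bases of Rps7 at 3 positions (99.5% identity). Both sequences are given from coding base 17 to 56, where T26G and G48A (Rps7 base first) are in capitals.
Rps7: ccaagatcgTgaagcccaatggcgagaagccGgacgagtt
Gm6472: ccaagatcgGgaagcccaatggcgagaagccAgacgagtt
Rps7 had 270, 267, 261, 290.5 and 279 CPM in KO and 413, 444, 392, 337 and 353 in WT, a log2 difference of -0.51 (SE 0.07, adjusted p 0.00165). Gm6472 had 197, 192, 209, 190.4 and 199 CPM in KO and 185, 209, 178, 174 and 177 in WT, with overlapping groups and a difference of 0.10 (adjusted p 0.299). Gm6472 held 39.6% to 44.5% of the reads of the pair in KO and 30.9% to 34.1% in WT. With all 17 copies added, Rps7 differed by -0.30 (adjusted p 0.0128) and moved from place 3 to place 40.

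Across the whole set, 1131 processed copies of 81 members were found in the table, and 224 of them had enough reads to test. Of those, 52 were lower and 2 (Gm8730 and Gm9625) higher, beside 7.43% lower and 6.84% higher among all tested genes. Their median log2 difference was -0.36. Adding each member's copies to it left the median at -0.29 and gave 67 members that were lower, 0 of them with the KO libraries as 1 sample (adjusted p 1.0 for Rplp0 there). Only Rplp0, Rps7, Rpl24 and Rpl36al moved by more than 0.1. Over the tested members other than Rplp0, Rps7 and Rpl21, the median absolute shift was 0.00699. Rpl21 went from -0.47 to -0.39, and Rpl23a from -0.27 to -0.30, where it passed (adjusted p 0.0188).

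**Figure D4:**
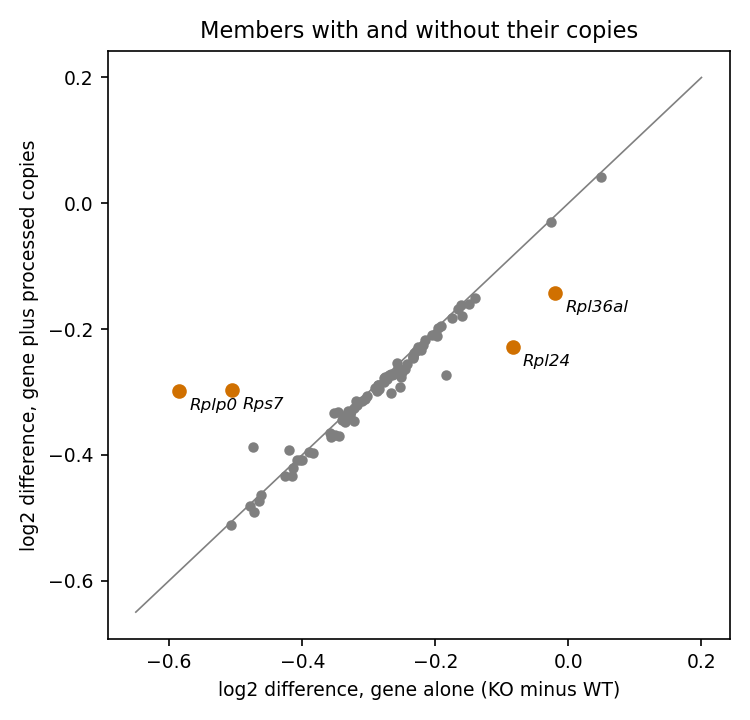
The log2 difference of each tested member alone (horizontal axis) and with the reads of its processed copies added (vertical axis), with the line of equal values in grey. Rplp0 and Rps7 move up to about -0.30, Rpl24 and Rpl36al (orange as well) move down, and the others stay near the line.

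Other genes of the ribosome pathway were counted in the same fit, where 7.43% of all tested genes were lower. Over 8 lists with 283 tested genes, 60 were lower and 0 higher. At an unadjusted p under 0.05 there were 119 lower and 1 higher (Tsr1, a factor of 40S maturation, 0.34). Of all tested genes, 29.5% had such a p in either direction. Neither DESeq2 (59 lower) nor limma-voom (57) called any gene of the lists higher. Among 21 further genes of translation, 6 were lower and 0 higher (median -0.16). The tract stood at the annotated first base in 4 of the 15 of them with a RefSeq start region (26.7%). Tpt1, a TOP-tract gene of cell growth, had 1106 ± 8.77 CPM in KO and 1345 ± 130 in WT (-0.28, adjusted p 0.0157), Fau, which encodes the S30 protein of the small subunit as a fusion, 304 ± 10.2 and 391 ± 56.5 (-0.36, adjusted p 0.0203), and Eef1d, a subunit of the elongation factor exchange complex, 176 ± 1.95 and 224 ± 30.6 (-0.35, adjusted p 0.0173). Rack1 (-0.22), Btf3 (-0.25) and Eif3f made up the 6. The elongation factors Eef1a1 (5319 against 5419 CPM, -0.03, adjusted p 0.839) and Eef2 (1906 against 1995 CPM, -0.07, adjusted p 0.46) did not pass and their groups overlapped.

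Of 45 biogenesis factors 6 were lower and 0 higher, with a median of -0.07. Nhp2, a protein of the pseudouridylation particle, had 27.2 ± 1.00 against 34.9 ± 3.93 CPM (-0.36, adjusted p 0.00914), Gar1, its partner, 9.80 ± 0.782 against 12.5 ± 0.725 (-0.35, adjusted p 0.0147), and Emg1, a methyltransferase of the 18S RNA, 59.4 ± 2.88 against 73.6 ± 7.81 (-0.31, adjusted p 0.0166). The nucleolar proteins Ncl (347 against 339 CPM, 0.03) and Npm1 (237 against 247 CPM, -0.06) did not pass. Of 15 genes of RNA polymerase I, which makes ribosomal RNA, 3 were lower and 0 higher (median -0.09): Taf1d (-0.32, adjusted p 0.00543), Znrd1 (-0.29, adjusted p 0.0101) and Polr1a (-0.25, adjusted p 0.042). Of 22 genes of mTOR signalling and TOP control 3 were lower and 0 higher (median -0.14). These were Eif4ebp1, an mTOR-regulated repressor of translation (62.2 ± 1.89 against 83.8 ± 13.5 CPM, -0.43, adjusted p 0.0131), the S6 kinase Rps6kb1 (-0.15, adjusted p 0.0309) and Myc, a driver of ribosome synthesis (2.47 ± 0.493 against 4.94 ± 2.36 CPM, -1.01, adjusted p 0.0447, groups overlapping). Mtor itself had 59.3 against 60.8 CPM (-0.04). None of 12 genes of ribosome stress and quality control passed by edgeR, DESeq2 or limma-voom. At an unadjusted p under 0.05 there were 4, all of them lower, beside 29.5% of all tested genes in either direction. Among the 4 was Atf4, the transcription factor of the integrated stress response (-0.15, adjusted p 0.161). Of 77 mitochondrial ribosomal proteins 12 were lower and 0 higher (median -0.09), led by Mrpl52 (41.4 ± 0.833 against 53.7 ± 4.66 CPM, -0.37, adjusted p 0.00263).

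The hosts of small nucleolar RNAs (snoRNA) had the lowest median of these lists. Their transcripts carry guide RNAs for ribosomal RNA in their introns, and several are TOP genes. The tract stood at the annotated first base in 2 of the 7 hosts with a RefSeq start region (28.6%). Of 9 tested, 7 were lower and 0 higher, with a median of -0.40. Snhg5 had 15.4, 15.5, 14.6, 16 and 15.4 CPM in KO and 18.9, 21.9, 22.8, 20 and 22.4 in WT, a log2 difference of -0.46 (SE 0.07, adjusted p 0.00137). Zfas1 had 9.14, 8.65, 7.98, 9.21 and 8.43 CPM in KO and 12.5, 11.5, 13.7, 10.8 and 11.7 in WT, a difference of -0.47 (SE 0.08, adjusted p 0.00442). Gas5 had 77.3 ± 3.93 CPM in KO and 92.9 ± 5.14 in WT and differed by -0.27 (adjusted p 0.00782). In these 3 genes the groups did not overlap. Of the ribosomal protein pseudogenes with -ps names, 23 of 82 were lower and 0 higher, with a median of -0.37, and their reads may be split with their parents. As for the members, the calls in these lists rest on counting the 5 KO libraries as 5 samples.

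**Figure D5:**
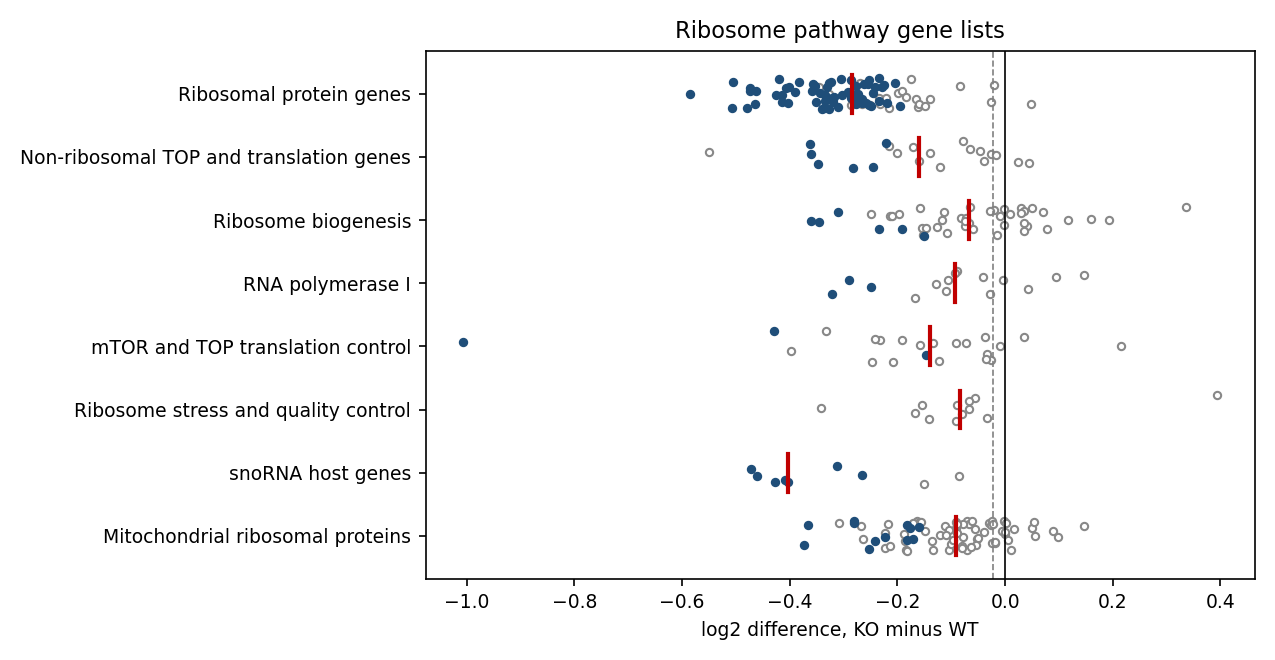
The log2 difference (KO minus WT) of each tested gene in the ribosomal protein set and 7 lists of its pathway, filled where the adjusted p was under 0.05, with a red bar at each list's median and a dashed line at the median of all tested genes. The red bars of the ribosomal proteins (-0.28) and the snoRNA host genes (-0.40) lie farthest from the dashed line at -0.02.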

How the data were processed

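Each of the 10 deposited tables gives raw read counts for 35667 genes. Per the labels' protocols, total RNA went into Illumina TruSeq libraries. Bowtie 0.12.2, mm8 and mm9 appear in the submitters' processing notes. How reads were assigned to genes, with which annotation and strand setting, and what became of multiply mapped reads is not stated in those notes or the labels. Near-identical copies, overlapping genes and antisense genes may thus share reads. Identifiers were matched to GENCODE M21 (GRCm38), which is not a build the notes name and serves only for positions, biotypes and sequences.

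Genes were tested with edgeR 4.0.16 (R 4.3.3), by its robust quasi-likelihood fit, with TMM factors and filterByExpr (minimum count 10, minimum total 15), on 5 KO and 5 WT libraries with no covariate and Benjamini-Hochberg adjustment over all tested genes at 0.05. Every adjusted p is from this test unless named otherwise, and CPM are TMM-scaled. The labels do not say that libraries are separate animals, so p-values measure the spread between these libraries, which may be technical. The KO libraries were also summed into 1 sample, with the same genes. DESeq2 1.42.0, limma-voom 3.58.1, other factors and filters, and leaving out each library were alternatives. The script was tested on simulated counts. Depth was 21242030 to 26694590 counts, and rows near 10 counts are imprecise.

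Processed copies were pseudogene transcripts matched to members' coding sequences by BLAST 2.17.0 (E-value at most 1e-10, at least 50% of the coding span). The members and lists were chosen with earlier results of these data known. The text names Rplp0, Rplp1, Rplp2, Rpsa and Gm8730, the 12 called members of smallest p per direction, the 6 most abundant per kb, paralogues by name, the 10 non-overlapping members of greatest difference, and up to 3 genes a list; 1 gene that the rule names is not reported here. Other genes named (among them Gm9625, Gm6472, Rpl21, Rpl23a, Rpl13a, Rpl24, Rpl36al and the called or abundant genes of the lists beyond 3) were chosen after their values were seen.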

Additional observations from a re-analysis of the deposited data

Results flagged for a closer look

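Single libraries stood far from the other 4 of their group in 6 of 104 groups of 5 checked (Dixon's test, critical value 0.71), and chance flags about 1 in 20. In KO 4 the ribosomal protein share was 2.89% (2.84% to 2.85% in the others) and Rps20 was at 356 CPM (338 to 343). In KO 1, Rps4l was at 10.7 CPM (12.6 to 12.9) and Gar1 at 8.46 CPM (9.91 to 10.4). In WT 2, Tpt1 was at 1573 CPM (1248 to 1310), and Rpl10l at 0.0855 CPM, which is 2 reads, against 0 in the other WT libraries.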

How the results depend on the processing

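All counts are of genes at an adjusted p under 0.05. Directions were followed in 289 members, pathway genes and copies, without the pseudogenes with -ps names. Of the 101 of these called in the main test, 0 turned their direction under any alternative. Genes that were not called did: with library totals Rps27l (0.05), Rpl36al (0.06), Rpl24 (0.01), Eef1a1 (0.05), Eef2 (0.01), Mtor (0.03) and Npm1 (0.01) were above 0, and Rpl24 stood at 0.43 without WT 1 and Rpl36al at 0.27 without WT 3. None of these turns passed the threshold. With the KO libraries summed into 1 sample, 7 genes in all, 0 members and 0 pathway genes passed (2242, 62 and 60 in the main test), and Rplp0 stood at -0.59 (adjusted p 0.999). At that setting, leaving out a WT library in turn, added after seeing the data, gave 1 to 5 genes, 0 members and Rplp0 at -0.59, -0.53, -0.57, -0.62 and -0.61 without WT 1 to 5 (adjusted p 0.999 or 1). With the copies added as well, also chosen after seeing the data, 0 members passed and Rplp0 was at -0.30. With library totals 30 members and 20 pathway genes passed, and with upper-quartile factors 35 and 38. Library totals moved the split of all calls to 493 lower and 1561 higher, and upper-quartile factors to 741 and 1319 (1167 and 1075 with TMM). With no low-count filter 31 pathway genes passed, and the split was 676 and 1294. Leaving out each library gave 1287 to 2678 genes in all, 30 to 74 members and 27 to 76 pathway genes. Without WT 1 and WT 3, whose mitochondrial shares are highest, 4386 genes and 40 members passed. The replicate numbers did not pair the libraries (same-number correlations -0.04 to 0.05, none over 0.1, 2 of 5 best with their own number), and with a replicate block 1319 genes, 33 members and 35 pathway genes passed. The median of the members stayed between -0.33 and -0.21 over all alternatives. The cause of these changes was not tested. Depth limits Rpl24, Rpl36al and the 3 untested members most.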
